A study of Mus musculus with 8 samples.

Results

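Quinone reductases, microsomal epoxide hydrolase and glutathione transferases carry out much of the second phase of detoxification, in which reactive compounds are reduced, hydrolyzed or joined to glutathione. Genes of this kind are often read as a sign of the transcription factor NFE2L2. The rows studied here were the 10 named Nqo1, Nqo2, Ephx1, Gstm1, Gstm5, Gstp1, Gstt1, Gstk1, Mgst1 and Mgst3, chosen by gene name out of 32390 rows of the table. Each name was found on 1 row, and all 10 passed the filter on low counts.

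Gastrocnemius muscle came from 4 Nox4 fl/fl control mice and 4 MckCre:Nox4 fl/fl mice (KO), all males aged 21 months on a C57BL/6 background and fed a chow diet. NOX4 is an NADPH oxidase that makes hydrogen peroxide. Mck-Cre deletes the floxed gene mainly in skeletal muscle and to a lesser degree in heart, so that other cells of the tissue keep it, and both groups carry the floxed alleles. Poly(A) RNA was sequenced without strand information and counted per gene, in 8 libraries. Whole muscle holds vessels, connective tissue, nerve and blood beside myofibers, and in such bulk samples fewer cells of a type and less RNA per cell cannot be told apart.

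Quinone reductases take quinones to hydroquinones in a single step and so bypass the radical semiquinone. Glutathione transferases join glutathione to electrophiles or reduce peroxides, and their classes (mu, pi, theta, kappa and the membrane-bound microsomal group) differ in location and substrate. In many tissues NFE2L2 drives a part of these genes by binding, with a small MAF protein, to antioxidant response elements, and the aryl hydrocarbon receptor (AHR) drives an overlapping part. Skeletal muscle expresses fewer of them, and at lower levels, than liver does.

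The promoters of 4 genes on which the comparison turns are shown first, as the 250 bases before and 50 bases after a RefSeq start. They are Nqo1, the textbook NFE2L2 target of the panel, Nqo2 and Ephx1, which were called higher in KO muscle, and Mgst1, which had the largest difference downward. Capitals mark any match on either strand to TGACNNNGC (the core of the antioxidant response element), TGAGTCA (an AP-1 element) or GCGTG (the core of the AHR element). All coordinates are on GRCm38.p6, in the direction of the gene, and the reads had been aligned to another build. Nqo1 lies on the minus strand (chr8:107403156-107403455), Nqo2 on the plus strand (chr13:33964409-33964708), Ephx1 on the minus strand (chr1:181017520-181017819) and Mgst1 on the plus strand (chr6:138140277-138140576).
Nqo1: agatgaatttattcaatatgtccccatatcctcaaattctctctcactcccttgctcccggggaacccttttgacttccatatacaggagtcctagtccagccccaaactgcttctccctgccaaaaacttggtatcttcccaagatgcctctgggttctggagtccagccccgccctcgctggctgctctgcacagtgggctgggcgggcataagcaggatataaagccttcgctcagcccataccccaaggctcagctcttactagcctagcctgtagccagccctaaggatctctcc
Nqo2: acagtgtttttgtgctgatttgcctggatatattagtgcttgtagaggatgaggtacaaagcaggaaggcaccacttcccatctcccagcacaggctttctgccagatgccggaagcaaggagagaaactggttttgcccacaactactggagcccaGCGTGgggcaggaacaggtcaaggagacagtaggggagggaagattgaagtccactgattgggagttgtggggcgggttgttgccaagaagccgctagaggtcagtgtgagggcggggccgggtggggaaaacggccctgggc
Ephx1: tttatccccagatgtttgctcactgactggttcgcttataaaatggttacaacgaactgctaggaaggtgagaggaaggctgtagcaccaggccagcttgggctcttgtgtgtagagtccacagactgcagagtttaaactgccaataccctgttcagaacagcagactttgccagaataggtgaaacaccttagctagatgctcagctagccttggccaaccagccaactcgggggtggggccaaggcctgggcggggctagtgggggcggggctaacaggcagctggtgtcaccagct
Mgst1: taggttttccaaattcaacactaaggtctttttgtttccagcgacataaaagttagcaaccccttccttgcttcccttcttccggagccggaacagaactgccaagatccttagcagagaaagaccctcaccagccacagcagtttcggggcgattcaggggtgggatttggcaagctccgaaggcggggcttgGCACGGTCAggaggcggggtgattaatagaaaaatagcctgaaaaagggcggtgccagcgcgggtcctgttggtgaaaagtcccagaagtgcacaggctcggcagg

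The 10 genes have 13 windows, since Nqo2, Gstm1 and Mgst1 have a further RefSeq start. A gene was counted if any of its windows held a match, whereas the shares are of windows. The core of the antioxidant response element was present in the windows of 2 of the 10 genes, Gstm5 and Mgst1, against 12.4% of all 32851 promoter windows. In the Mgst1 window it stands on the opposite strand as GCACGGTCA. The AP-1 element was present in Gstm5 and Gstp1 (5.2% of all windows), where the Gstm5 match overlaps an AHR core. The AHR core was present in 5 genes, Nqo2, Gstm1, Gstm5, Gstp1 and Mgst3, against 32.4% of all windows. The windows of Nqo1, Ephx1, Gstt1 and Gstk1 held none of the 3 motifs. A match is only a run of letters, and elements outside these windows were not searched.

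The libraries held 16350548 to 19804661 counts, and the 10 genes had 45 to 2511 counts in a library. Counts were scaled to library size as CPM by the TMM method and tested by the quasi-likelihood F test of edgeR, with p adjusted by Benjamini-Hochberg over 12725 rows. Calls needed an adjusted p under 0.05 and a log2 fold change (KO over control) beyond 0.5 in either direction. The first principal component (34.9% of the variance) set the genotypes apart, with control replicate 4 farthest out, and the second (19.0%) set KO replicates 1 and 3 apart from KO replicates 2 and 4. The deleted gene Nox4 had 5.09, 2.47, 1.87 and 3.64 CPM in control replicates 1 to 4 and 1.74, 2.17, 2.21 and 2.17 CPM in KO replicates 1 to 4. Its groups overlapped, and it was not called (log2 fold change -0.65 with a standard error of 0.29, edgeR adjusted p = 0.207). Its counts run over the whole gene and may include transcript outside the deleted part, so they check the labels only weakly. General myofiber markers were abundant in every library, with a summed level of 146643 to 186509 CPM over 8 genes in control and 156173 to 192324 CPM in KO muscle. Of the 4 hepatocyte markers none passed the filter on low counts.

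Of the 10 genes, Nqo2 and Ephx1 were called higher in KO muscle and none was called lower by edgeR. Over all rows tested, 2.68% were called higher and 3.48% lower. At an unadjusted p under 0.05, 3 of the 10 genes were higher (Nqo2, Ephx1 and Gstt1) and 1 was lower (Mgst1), against 10.7% of all rows higher and 12.5% lower at that threshold. DESeq2 and pydeseq2 called the same 2 genes higher and Mgst1 lower, where DESeq2 called 3.41% of rows higher and 4.49% lower and pydeseq2 3.21% and 4.27%. The median log2 fold change was -0.05 over the 10 genes and 0.01 over all rows tested, and 6 of the 10 lay nearer to 0 than the median absolute value of 0.20 over all rows. The 4 KO libraries lay above the 4 control libraries in 2 of the 10 genes, against 7.20% of all rows, and below them in none, against 8.97%.

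**Figure D1:**
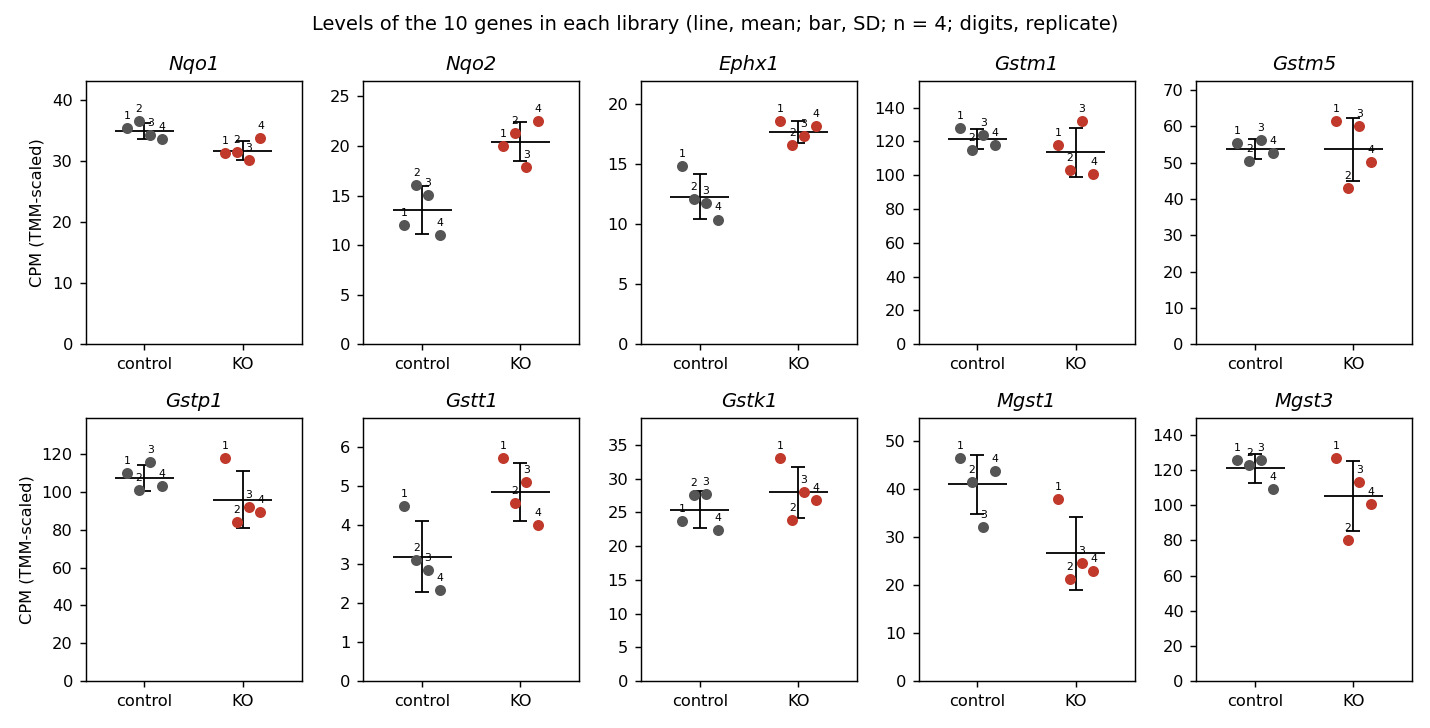
Level of each of the 10 genes in CPM (TMM-scaled, y axis from 0, own scale per panel) in the 4 control (grey) and 4 KO (red) libraries, numbered by replicate, with the mean as a line and the SD as a bar. The groups are apart in Nqo2 and Ephx1 and overlap in the other 8 genes.

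Of the quinone reductases only Nqo2 was called, and its difference from Nqo1 was not tested. Nqo2, a quinone reductase that takes its electrons from dihydronicotinamide riboside rather than from NADPH, was at 12, 16.1, 15.1 and 11 CPM in control replicates 1 to 4 and at 20, 21.3, 17.9 and 22.5 CPM in KO replicates 1 to 4. All KO libraries lay above all control libraries. The means were 13.5 ± 2.45 CPM in control and 20.4 ± 2.00 CPM in KO muscle (SD, n = 4), and Nqo2 rose 1.51-fold (95% interval 1.22 to 1.87, log2 fold change 0.59 with a standard error of 0.14, edgeR adjusted p = 0.0264). The call was lost without control replicate 1, control replicate 4, KO replicate 2 or KO replicate 4, with edgeR adjusted p of 0.0696, 0.0725, 0.0503 and 0.0573. The gene overlaps Serpinb6a on the opposite strand, which had 7392 to 11118 counts in a library, and 17.8% of the 100-base windows of the longest Nqo2 transcript are shared with other genes, so that reads from that stretch cannot be assigned without strand.

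Nqo1, the NADPH-dependent quinone reductase, was at 35.4, 36.5, 34.2 and 33.6 CPM in control and at 31.3, 31.4, 30.2 and 33.8 CPM in KO libraries. KO replicate 4 lay within the control range and the other KO libraries lay below it. The means were 34.9 ± 1.26 and 31.7 ± 1.55 CPM (SD, n = 4), and the gene was not called (log2 fold change -0.14, 95% interval -0.34 to 0.06, edgeR adjusted p = 0.397). None of its transcript windows was shared with another gene.

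Ephx1 encodes microsomal epoxide hydrolase, which opens epoxides to diols. It was at 14.9, 12.1, 11.8 and 10.4 CPM in control and at 18.6, 16.6, 17.4 and 18.2 CPM in KO libraries, and the groups did not overlap. A pseudogene, Gm36961, overlaps the gene on the same strand. The level of Ephx1 rose from 12.3 ± 1.87 to 17.7 ± 0.896 CPM (SD, n = 4), a fold of 1.44 (95% interval 1.19 to 1.75, log2 fold change 0.53 with a standard error of 0.13, edgeR adjusted p = 0.0266). The call was lost without any of control replicates 2, 3 and 4 and KO replicates 1, 3 and 4, with edgeR adjusted p from 0.0524 to 0.0751. Without both control replicate 4 and KO replicate 1, a choice made after seeing the data, neither Nqo2 (log2 fold change 0.51, edgeR adjusted p = 0.1) nor Ephx1 (0.43, edgeR adjusted p = 0.126) was called.

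Hemoglobin genes were also higher in KO muscle. Of the 5 blood markers 3 were tested, and Hba-a1 (log2 fold change 1.24, edgeR adjusted p = 0.00978) and Hbb-bs (1.00, edgeR adjusted p = 0.0153) were called higher. The summed level of the 3 was 47.6 to 52.7 CPM in control and 72.3 to 159 CPM in KO libraries. Among KO libraries Nqo2 was highest in replicate 4 (22.5 CPM), where Hba-a1 was lowest (20.8 CPM). Ephx1 and Hba-a1 were both highest in KO replicate 1 (18.6 and 48.1 CPM). The part of blood in the levels of Nqo2 and Ephx1 was not tested.

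No mu class gene was called. Gstm1, a cytosolic mu class transferase, was at 128, 115, 124 and 118 CPM in control and at 118, 103, 132 and 101 CPM in KO libraries, and the KO range enclosed the control range. Its log2 fold change was -0.10 (95% interval -0.33 to 0.14, edgeR adjusted p = 0.643). Gstm5, another member of the class, was at 55.5, 50.5, 56.3 and 52.7 CPM in control and at 61.4, 43.1, 60.1 and 50.1 CPM in KO libraries. Here too the KO libraries spread more widely than the controls, and the interval of the log2 fold change ran from -0.26 to 0.26 (edgeR adjusted p = 0.996). The other mu class genes tested, Gstm2 (log2 fold change 0.28, edgeR adjusted p = 0.299), Gstm4 (0.29, 0.175) and Gstm7 (0.11, 0.892), were not called either. The interval of Gstm4 ran from 0.03 to 0.56 and left out 0, and all 4 KO libraries lay above its control mean. With all 7 mu class genes summed, the log2 fold change was 0.04 (95% interval -0.22 to 0.29). In the Gstm5 transcript, 9.34% of windows are shared with other genes, most with the antisense gene 4933431E20Rik, and 7.73% in Gstm1.

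Gstp1, the pi class transferase, was at 110, 101, 116 and 103 CPM in control and at 118, 84.1, 92.1 and 89.4 CPM in KO libraries. KO replicate 1 lay above all controls and the other KO libraries lay below all controls. The log2 fold change was -0.16 (95% interval -0.41 to 0.09, edgeR adjusted p = 0.438). Over its transcript, 52.8% of windows were shared with other genes, most with its near-copy Gstp2, so that the split of reads between these genes is uncertain. Gstp2 was not called (log2 fold change -0.11, edgeR adjusted p = 0.657), nor was the sum of the pi class (-0.15, edgeR adjusted p = 0.484).

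The theta class was higher in KO muscle when its genes were summed. Gstt1, which handles small halogenated compounds, was at 4.49, 3.09, 2.84 and 2.34 CPM in control and at 5.72, 4.55, 5.10 and 3.99 CPM in KO libraries. Only KO replicate 4 lay below the highest control library, control replicate 1. With 45 to 97 counts in a library it was the least counted of the 10 genes, and its log2 fold change of 0.60 (95% interval 0.13 to 1.08) missed the call at an edgeR adjusted p of 0.119. Without control replicate 1 it was called (log2 fold change 0.81, edgeR adjusted p = 0.0476).

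Its class relative Gstt2 was at 2.10, 1.39, 1.55 and 1.72 CPM in control and at 3.13, 3.19, 4.57 and 3.46 CPM in KO libraries. It rose 2.13-fold (95% interval 1.52 to 2.97, log2 fold change 1.09, edgeR adjusted p = 0.0133), and the groups did not overlap. Gstt3 was not called (log2 fold change 0.41, edgeR adjusted p = 0.431). With the counts of the 4 theta class genes summed, the class was at 8.57, 5.92, 5.51 and 5.41 CPM in control and at 10.9, 9.31, 12.5 and 8.91 CPM in KO libraries. The sum was called higher (log2 fold change 0.72 with a standard error of 0.18, edgeR adjusted p = 0.0327), with control replicate 1 above the other controls and no overlap between groups. Among KO libraries Gstt1 had the same order as Hba-a1, which was at 48.1, 24.8, 40.1 and 20.8 CPM in KO replicates 1 to 4. Gstt2 and the sum were highest in KO replicate 3. In KO muscle, replicates 1 and 3 lay above replicates 2 and 4 in 7 of the 10 genes, Gstt1 among them. Among control libraries the orders of Gstt1 and Hba-a1 differed, with Hba-a1 at 15.8, 13.4, 13.5 and 13.9 CPM in control replicates 1 to 4. The part of blood in the theta class was not tested.

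**Figure D2:**
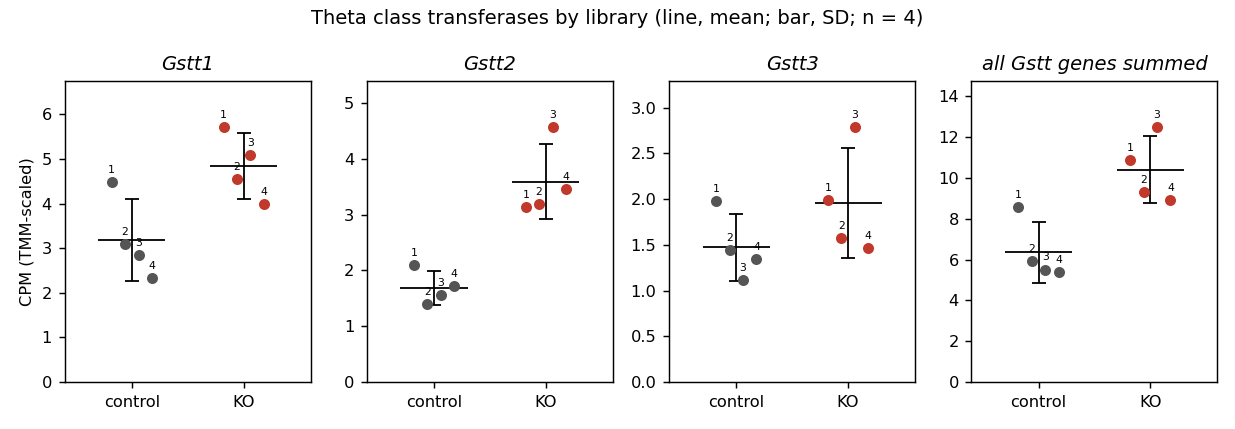
CPM (TMM-scaled, y axis from 0) of the theta class genes Gstt1, Gstt2 and Gstt3 and of the sum over the class in the 4 control (grey) and 4 KO (red) libraries, with the mean as a line and the SD as a bar. Groups overlap in Gstt1 and Gstt3 and are apart in Gstt2 and in the sum.

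Gstk1, the kappa class transferase of mitochondria and peroxisomes, was at 23.7, 27.6, 27.8 and 22.4 CPM in control and at 33.1, 23.9, 28.1 and 26.8 CPM in KO libraries. The groups overlapped, and the log2 fold change of 0.14 had an interval from -0.13 to 0.41 (edgeR adjusted p = 0.557).

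The microsomal transferases are membrane proteins, unlike the cytosolic classes. Mgst1, which conjugates glutathione and reduces lipid peroxides, was at 46.4, 41.3, 32.1 and 43.7 CPM in control and at 37.8, 21.2, 24.5 and 22.8 CPM in KO libraries. KO replicates 2, 3 and 4 lay below all controls and KO replicate 1 lay above control replicate 3. The means were 40.9 ± 6.21 and 26.6 ± 7.61 CPM (SD, n = 4), a fold of 0.651 (95% interval 0.496 to 0.853, log2 fold change -0.62, standard error 0.18). By edgeR it missed the call at an adjusted p of 0.0553, and without KO replicate 1 it was called lower (log2 fold change -0.83, edgeR adjusted p = 0.00678). DESeq2 (adjusted p = 0.018) and pydeseq2 (0.0191) called it lower with all 8 libraries.

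Markers of macrophages and other leukocytes had lower fitted values in KO muscle too. The log2 fold change was below 0 in all 9 genes tested (median -0.69), and Cd163, a macrophage scavenger receptor, was called lower (log2 fold change -1.29, edgeR adjusted p = 0.0238). The summed level was 45.0 to 116 CPM in control and 23.2 to 58.8 CPM in KO libraries. Of 8 fibroblast markers, Mfap5 was called lower (log2 fold change -0.89, edgeR adjusted p = 0.0452), while 4 of the 8 were below 0 and 4 above. The part of leukocytes or fibroblasts in the level of Mgst1 was not tested.

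Mgst3, another microsomal transferase, was at 126, 123, 126 and 109 CPM in control and at 127, 80.1, 113 and 101 CPM in KO libraries. The groups overlapped, and the log2 fold change was -0.20 (95% interval -0.49 to 0.09, edgeR adjusted p = 0.398).

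**Figure D3:**
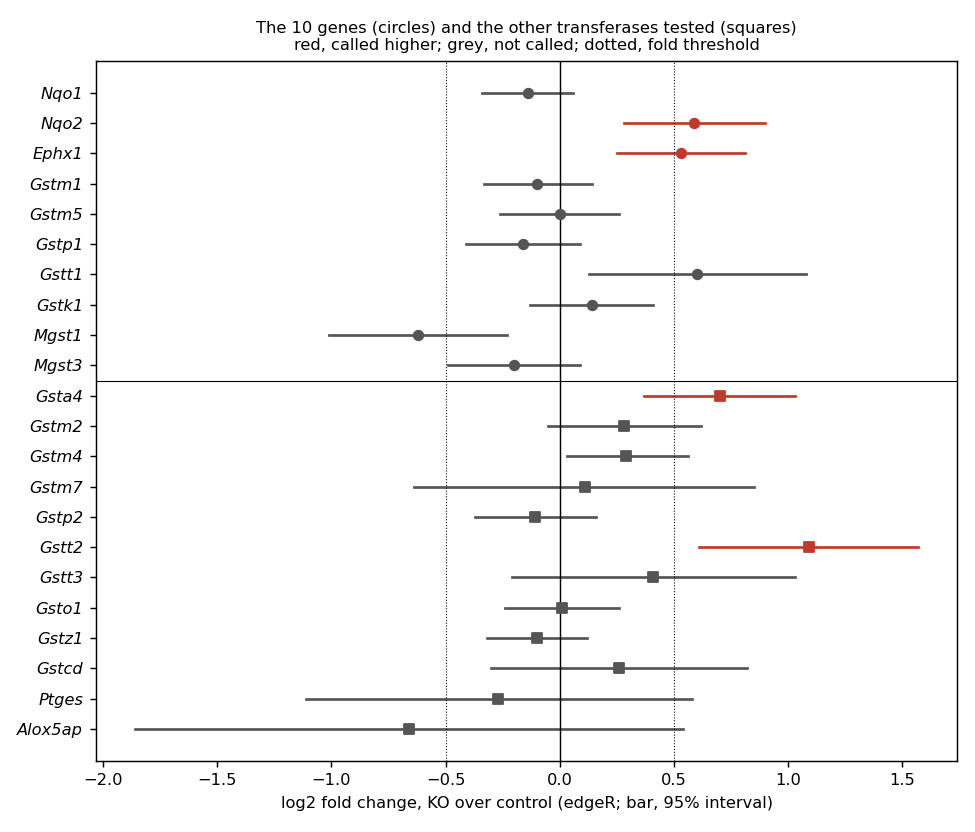
Log2 fold change (KO over control, x axis) with its 95% interval from edgeR for the 10 genes (circles) and the 12 other transferases and relatives tested (squares), red where called higher and grey where not called. Nqo2, Ephx1, Gsta4 and Gstt2 are called, and the intervals of Nqo1, Gstm1, Gstm5, Gstp1, Gstk1 and Mgst3 include 0.

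Libraries of the same genotype differed by replicate number in several of these genes. In control muscle, replicates 1 and 3 both lay above replicates 2 and 4 in Gstm1, Gstm5, Gstp1 and Mgst3, which is 4 of 10 genes against 17.1% of all rows. In KO muscle the same held for 7 of 10 genes (Gstm1, Gstm5, Gstp1, Gstt1, Gstk1, Mgst1 and Mgst3) against 26.1% of all rows. Nqo1 and Nqo2 went the opposite way there, as did 27.3% of all rows. In control muscle none of the 10 genes went the opposite way, against 18% of all rows. The order was noticed in these data and has no test, and what the replicate numbers stand for was not given in the labels.

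Levels between genes were compared per kilobase, from the median length of each gene's coding transcripts in GENCODE M21. By median length Gstm1 was highest in control muscle, at 137 ± 7.12 CPM per kilobase (SD, n = 4), and Gstp1 followed at 133 ± 8.41, with overlapping ranges. Mgst3 was at 110 ± 7.46, Gstm5 at 73.2 ± 3.61, Mgst1 at 49.4 ± 7.5 and Gstk1 at 27.3 ± 2.96 CPM per kilobase, and the control ranges of these neighbours were apart. Nqo1 was at 22.5 ± 0.809, Nqo2 at 13.6 ± 2.46 and Ephx1 at 10.1 ± 1.53 CPM per kilobase, where the ranges of Nqo2 and Ephx1 overlapped. Gstt1 was lowest, at 3.08 ± 0.891 CPM per kilobase. The 2 genes called higher were thus among the lower members of the order. The order depends in part on the transcript length used. Per kilobase of the longest coding transcript Gstp1 (131 CPM) and Mgst3 (110 CPM) stood above Gstm1 (94.1 CPM), and Ephx1 (7.05 CPM) above Nqo2 (3.52 CPM). Gstm5 (56.9 CPM) and Mgst1 (35 CPM) were lower on that scale but kept their places, as did Gstk1, Nqo1 and Gstt1.

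The other genes of the pathway were read from lists chosen with results of these data known, and their counts at an unadjusted p under 0.05 stand beside 10.7% of all rows higher and 12.5% lower. Of the other glutathione transferases, 12 of 24 were tested and 2 were called higher and none lower by edgeR (unadjusted p under 0.05: 3 higher and 0 lower; DESeq2 and pydeseq2 called 2 higher and 0 lower). The 12 also include Ptges and Alox5ap, relatives of the microsomal transferases, and neither was called. The 2 called genes were Gstt2 and Gsta4, an alpha class transferase that clears products of lipid peroxidation. Gsta4 was at 11.6, 8.70, 8.67 and 7.38 CPM in control and at 16.2, 12.7, 14.9 and 15.2 CPM in KO libraries, and it rose 1.63-fold (95% interval 1.30 to 2.04, edgeR adjusted p = 0.0167). The median log2 fold change of the list was 0.18, beside 0.01 over all rows.

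Of 28 other reductases, epoxide hydrolases and aldehyde enzymes tested, 1 was called lower and none higher by edgeR (unadjusted: 4 lower and 1 higher; DESeq2 and pydeseq2: 1 lower, 0 higher), with a median of 0.09. The called gene was Por, the electron donor of microsomal cytochromes P450, which fell from 25.8 ± 0.874 to 17.9 ± 1.52 CPM (SD, n = 4; log2 fold change -0.53, edgeR adjusted p = 0.0117). Among 14 other phase II enzymes, Ugdh, which supplies the sugar for glucuronidation, was called lower (log2 fold change -0.72, edgeR adjusted p = 0.0416). Its groups overlapped, and the call was lost with library size only (edgeR adjusted p = 0.0649). It was also lost without any of control replicates 1, 2 and 4 and KO replicates 1, 3 and 4, with edgeR adjusted p from 0.0758 to 0.111. None of the 14 enzymes was called higher by edgeR, DESeq2 or pydeseq2 (2 at an unadjusted p under 0.05), and the median was 0.16.

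Genes that supply glutathione and handle its conjugates were called lower in 3 of 21 and higher in none by edgeR (unadjusted: 5 lower and 2 higher; DESeq2 and pydeseq2: 4 lower, 0 higher), with a median of -0.09. Gclm, the modifier subunit of the enzyme that limits glutathione synthesis, was at 34.5, 42.2, 46.2 and 59.1 CPM in control and at 16.9, 18.9, 19.0 and 19.2 CPM in KO libraries. The groups were far apart, and it fell to 0.406-fold (log2 fold change -1.30, edgeR adjusted p = 0.000596). Gclc, the catalytic subunit, fell less (log2 fold change -0.63, edgeR adjusted p = 0.0161), and Dpep1, a dipeptidase of glutathione breakdown, fell too (-0.70, edgeR adjusted p = 0.0212). The Dpep1 call was lost without any of control replicates 1 and 2 and KO replicates 3 and 4, with edgeR adjusted p from 0.052 to 0.0635.

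Of 13 regulators tested, 6 were called lower and none higher by edgeR, DESeq2 or pydeseq2 (unadjusted: 8 lower and 1 higher), with a median of -0.62. The 3 with the smallest p were the small MAF proteins Maff (log2 fold change -1.29, edgeR adjusted p = 0.00185) and Mafk (-0.78, edgeR adjusted p = 0.00346) and the repressor Bach1 (-1.16, edgeR adjusted p = 0.00211). Nfe2l2 itself, named after its values were seen, was at 69.5 to 71.4 CPM in control and at 33.5 to 52.7 CPM in KO libraries (log2 fold change -0.65, edgeR adjusted p = 0.0112). Of 4 AHR targets tested, Tiparp was called higher (log2 fold change 0.75, edgeR adjusted p = 0.00537) and none lower by edgeR. At an unadjusted p under 0.05, 1 was lower, and DESeq2 and pydeseq2 called 1 lower. The AHR target Cyp1b1 was not called by edgeR (log2 fold change -0.99, edgeR adjusted p = 0.0585), though all KO libraries lay below all controls.

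Of 21 NFE2L2 targets outside the panel, 9 were called lower and none higher by edgeR (unadjusted: 12 lower and 2 higher; DESeq2 and pydeseq2: 10 lower, 0 higher), with a median of -0.56. The lists share genes, and Gclc and Gclm are among these 9 and among the glutathione supply genes called lower above. Srxn1, which repairs oxidized peroxiredoxins, was at 137 to 220 CPM in control and at 25.3 to 35.2 CPM in KO libraries (log2 fold change -2.53, edgeR adjusted p = 1.66e-05). Cat, the catalase gene, was at 184 to 219 CPM in control and at 74.0 to 97.7 CPM in KO libraries (log2 fold change -1.31, edgeR adjusted p = 5.54e-05). Beside these, Nqo1 had a log2 fold change of -0.14, and the lowest of the 10 genes was Mgst1 at -0.62. The difference between the panel and that list was not tested.

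**Figure D4:**
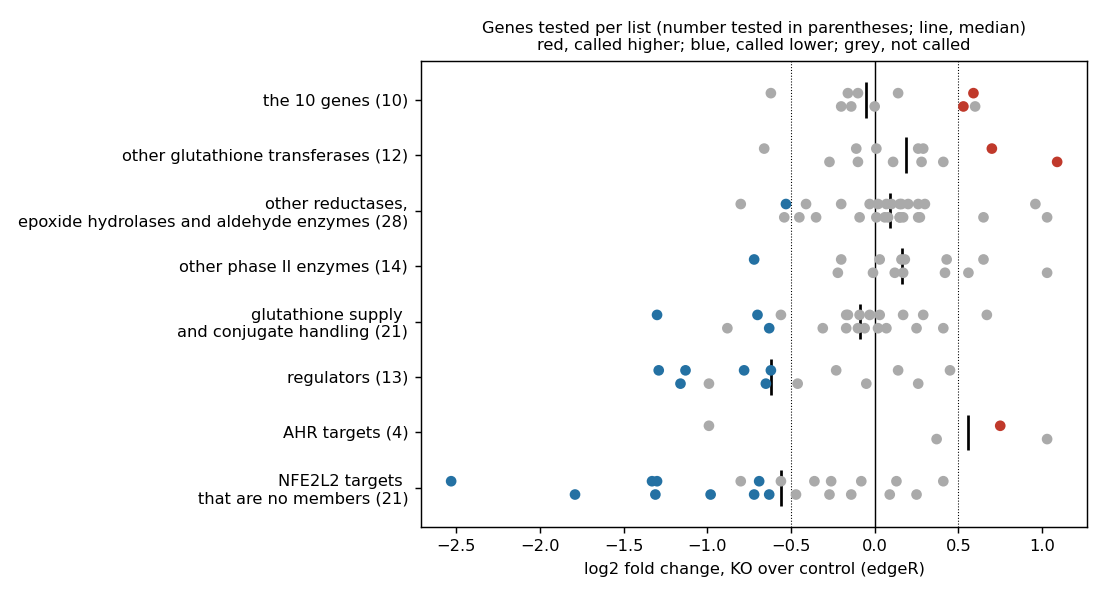
Log2 fold change (KO over control, x axis) of every gene tested in the panel and in 7 related lists, with the median as a line, called genes in red (higher) or blue (lower) and dotted lines at the fold threshold. Each list has one point per gene, and a gene on several lists is drawn in each. The 10 genes lie between -0.62 and 0.60, and the 21 NFE2L2 targets outside the panel reach -2.53.

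**Figure D5:**
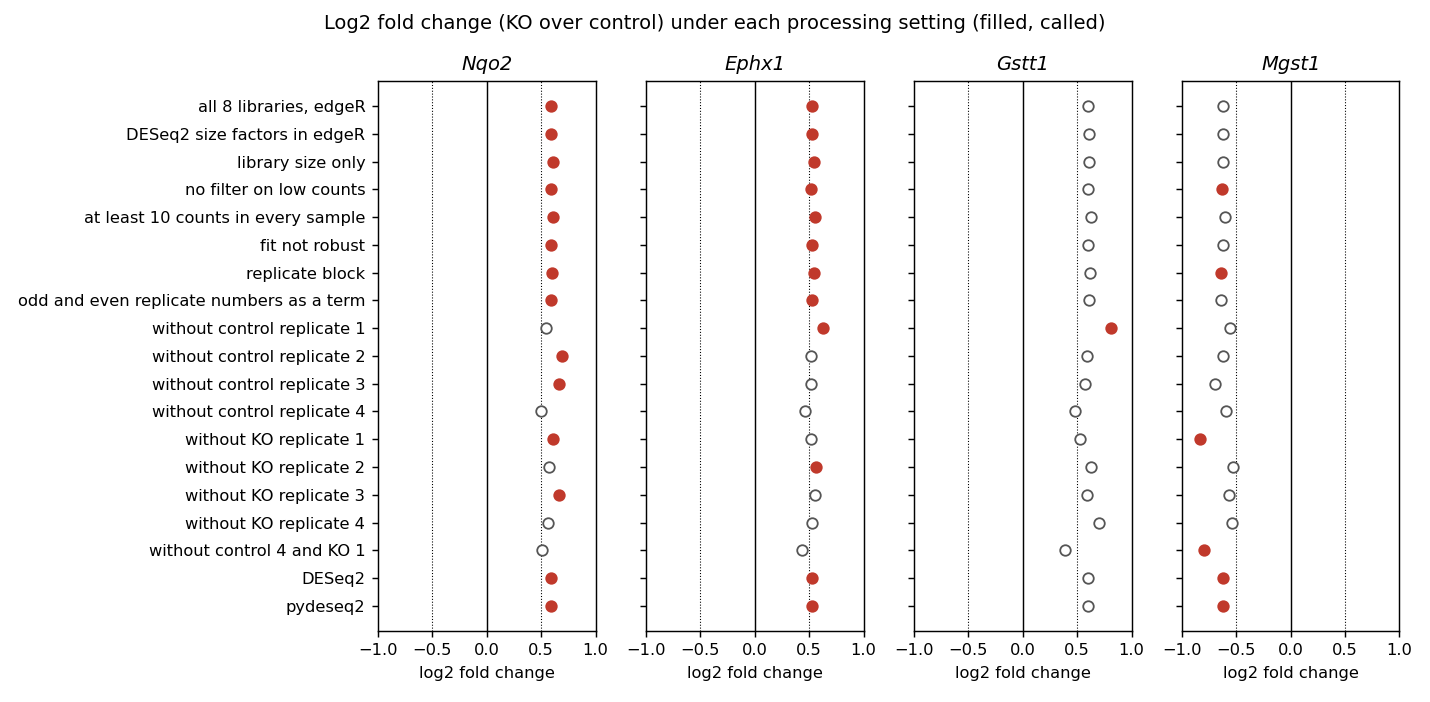
Log2 fold change (KO over control, x axis) of Nqo2, Ephx1, Gstt1 and Mgst1 under each way of processing the counts (y axis), filled where the gene was called. The sign holds in every row for all 4 genes, and the calls come and go when single libraries are left out.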

How the data were processed

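Gastrocnemius RNA of 4 control and 4 KO mice was sequenced as unstranded poly(A) libraries. The authors processed the reads with an nf-core pipeline and deposited raw counts per gene without normalization. The submitters' processing notes name STAR and GRCm39, and the counter's settings are not given in the sources used here. Groups came from the genotype labels. A separate batch label of the samples puts all of them in 1 batch. Rows were tested in R 4.3.3 with edgeR 4.0.16 (TMM, filterByExpr, robust glmQLFit, genotype as the only term) over 12725 rows, with the study's thresholds (adjusted p under 0.05, log2 fold change beyond 0.5 either way). The common biological coefficient of variation was 0.174. The labels number the samples without naming animals, so p-values measure the spread between these samples. The libraries held 16350548 to 19804661 counts, and intervals are at 95%. DESeq2 1.42.0, pydeseq2 0.5.4, other scalings and filters, a replicate block and each library left out were alternatives. The fit was tested on simulated data. Promoters came from RefSeq on GRCm38.p6, and all 10 genes matched. The members and lists were chosen with earlier results of these data known. Named were the 10 genes, Nox4, the called genes of each list (up to 3 per direction by p), class relatives, and markers that moved with a result. Listed symbols missing from the table were looked up as RefSeq synonyms.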

Additional observations from a re-analysis of the deposited data

Results flagged for a closer look

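In groups of 4 libraries, 5 of 64 groups had a library whose gap to its neighbour, divided by the whole range, passed Dixon's 95% critical value, where chance gives about 1 in 20, or 3.2. None of the 10 genes was among them. Control replicate 1 lay high in the sum of the theta class (ratio 0.839), and control replicate 3 lay high in Gstp2 (0.862). KO replicate 1 lay low in Nox4 (0.918) and in Gclm (0.886), and KO replicate 2 lay high in Gclc (0.905).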

How the results depend on the processing

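Without single replicates the count of the 10 genes called higher ranged from 0 to 2 and called lower from 0 to 1, beside 2 and 0 with all libraries. It was 0 higher and 1 lower without control replicate 4 and KO replicate 1 together (chosen after seeing the data), 0 higher at an adjusted p under 0.01, and 1 lower (Mgst1) with no filter on low counts, with DESeq2, with pydeseq2 and with the replicate block. Over all rows, leaving out single replicates gave 295 to 425 lower and 204 to 317 higher, without those 2 libraries 248 and 178, and at an adjusted p under 0.01 156 and 96. Same-numbered mice were not shown to be paired (correlations of deviations 0.22, 0.15, 0.04 and 0.04, and not every sample correlated best with its own number). The replicate block gave 543 rows lower and 390 higher. With odd and even replicate numbers as a term (chosen after seeing the data), 543 rows were lower and 419 higher. Mgst1 was not called in that fit (edgeR adjusted p = 0.0506). Gstm5 changed sign with library size only (0.01), with at least 10 counts in every sample (0.02) and without single replicates (-0.06 to 0.09), Gstm7 without single replicates (-0.12 to 0.29), and Gstk1 without control replicate 4 and KO replicate 1 (-0.01). The summed mu class, at 0.04, had the opposite sign to Gstm1 and Gstm5. These sign changes lay within the intervals of the fits. Gstt1 had the fewest counts of the 10 genes, 45 to 97 in a library.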
